A study of Homo sapiens with 2 samples.

Results

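This report describes 10 transcription factors that set plasma cell and B cell identity: IRF4, XBP1, PRDM1, MYC, MAF, BCL6, POU2AF1, BACH2, PAX5 and SPIB. The members were named as genes, and all probe sets that the annotation of the HG-U133 Plus 2.0 array maps to exactly 1 symbol among them were taken, which gave 26 of 54675 probe sets and 10 of 19775 genes. RNA came from MM.1S, an established human multiple myeloma line. One group was MM.1S grown with plasmacytoid dendritic cells (pDCs), interferon-producing cells of the dendritic lineage, and the other was MM.1S grown without them. Each group had 1 array (n = 1), so no value has a replicate error, no test was possible, and "higher" and "lower" describe these 2 arrays only. The series asks by which mechanisms pDCs give myeloma cells growth and drug resistance. The source of the pDCs, the time in culture and whether pDCs were removed before extraction are not stated in the sources used. All results are from 1 cell line, known to carry an IGH-MAF translocation that drives MAF.

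A B cell becomes a plasma cell when 1 set of factors replaces another. PAX5, BACH2, BCL6 and SPIB hold B cell and germinal centre identity. IRF4, PRDM1 (Blimp-1) and XBP1 set up the secretory plasma cell, and PRDM1 represses several B cell factors, PAX5 and BCL6 among them, while BCL6 and BACH2 repress PRDM1. POU2AF1 (OCA-B), a coactivator of octamer-binding factors, works in both states and was put in neither group. MAF and MYC are drivers of myeloma that act on top of the plasma cell programme. Plasma cell factors below are IRF4, XBP1, PRDM1, MAF and MYC, and B cell factors are BCL6, BACH2, PAX5 and SPIB. Placing MAF and MYC with the plasma cell factors was a choice, and MYC is also on the list of PRDM1-repressed genes used below.

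BCL6 and BACH2 were the members past 2-fold, BCL6 lower and BACH2 higher, and PRDM1 was lower on each of its probe sets. Promoter windows of these members are shown. Being lower throughout was not particular to PRDM1: XBP1 and MAF were also lower on each measured probe set, and their windows are not printed. Each window holds 250 bases before and 50 bases after a start site, from RefSeq on GRCh38.p14, printed 5′ to 3′ on the strand of the gene, and capitals mark each motif match. The BCL6 window is chr3:187745419-187745718 on the minus strand, the BACH2 window is chr6:90296794-90297093 on the minus strand, and the PRDM1 window is chr6:106098691-106098990 on the plus strand.
BCL6: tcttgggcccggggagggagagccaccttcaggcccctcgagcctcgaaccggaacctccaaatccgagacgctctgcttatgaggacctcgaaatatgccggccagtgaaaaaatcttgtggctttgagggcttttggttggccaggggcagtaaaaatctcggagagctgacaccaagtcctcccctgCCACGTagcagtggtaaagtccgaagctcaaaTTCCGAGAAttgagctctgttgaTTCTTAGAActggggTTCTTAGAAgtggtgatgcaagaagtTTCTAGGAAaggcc
BACH2: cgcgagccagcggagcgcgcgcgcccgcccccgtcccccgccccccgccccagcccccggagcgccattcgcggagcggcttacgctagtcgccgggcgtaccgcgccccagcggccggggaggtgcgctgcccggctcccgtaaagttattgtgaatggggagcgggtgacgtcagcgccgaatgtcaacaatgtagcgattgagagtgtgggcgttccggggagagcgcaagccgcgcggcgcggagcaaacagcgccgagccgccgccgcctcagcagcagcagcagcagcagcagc
PRDM1: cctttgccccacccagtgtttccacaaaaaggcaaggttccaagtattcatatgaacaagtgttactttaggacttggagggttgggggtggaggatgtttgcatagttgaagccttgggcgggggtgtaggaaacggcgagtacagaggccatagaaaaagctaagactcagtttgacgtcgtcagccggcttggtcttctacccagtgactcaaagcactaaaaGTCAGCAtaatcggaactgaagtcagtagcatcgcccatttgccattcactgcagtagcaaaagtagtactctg

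The search covered 7 motifs on both strands in 11 windows of 8 members. POU2AF1 and MYC had no promoter entry and were not searched. The BCL6 window shown held the STAT motif TTCNNNGAA 4 times, starting 28 and 5 bases before the start site (TTCCGAGAA and TTCTTAGAA) and 10 and 36 bases after it (TTCTTAGAA and TTCTAGGAA). At least 1 such match is present in 7.88% of 27305 promoters of this length (1 window per gene), and 4 or more in 6 of them (0.022%). The other BCL6 window, chr3:187736452-187736751, held no match of any motif. BCL6 protein is known to bind a sequence that resembles the STAT site and to repress its own gene. The BCL6 window shown also held the unfolded-protein motif CCACGT (9.91% of promoters), which was found as well in the PAX5 window and in the other PRDM1 window. The PRDM1 window shown held the MAF motif TGCTGAC on the opposite strand, 24 bases before the start site (4.2% of promoters). The other PRDM1 window, chr6:106086086-106086385, lies upstream of the one shown and is not printed. The IRF motif GAAANNGAA (8.29% of promoters), the octamer ATGCAAAT (1.8%), the E-box CACGTG (7.43%) and the PRDM1 motif AAGTGAAA (1.69%) had no match in any window of the 8 members. The E-box and CCACGT share 5 letters and can overlap, as can the IRF and PRDM1 motifs. A match is a description of letters and does not show that a factor binds there.

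All values are MAS5 signals in linear units, and the log2 ratio is the value with pDCs minus that alone. Signals under the array's own median, 115.9 with pDCs and 124.0 alone, were taken as not measured and raised to this floor. Where 1 of the 2 signals was raised, the fold is a lower limit and is given as "at least", and where both were, no ratio was formed. Of the 26 member probe sets, 12 were above the floor on both arrays, 4 on 1 array and 10 on neither. Among the 27 control probe sets for bacterial transcripts, which match nothing in human RNA, the highest signal was 71.2 with pDCs and 147.2 alone. RNA 3′ bias differed between the arrays, with an ACTB 3′ to 5′ signal ratio of 8.09 with pDCs and 19.5 alone and a GAPDH ratio of 2.46 and 3.07, and its part in the ratios below was not tested. Plasma cell identity was clear on both arrays: of 9 plasma cell markers, 8 were above the floor with pDCs and 9 alone. SDC1 (CD138) was at 10177 with pDCs and 10503 alone, and the BCMA gene TNFRSF17 at 31100 and 22656. Of the 9 markers, 4 were higher with pDCs and 5 lower. Only GPRC5D was past 2-fold, at 4255 against 1016 (4.19-fold higher). CD27, below the floor with pDCs, had 29.3 against 211.

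Of the 10 members, 9 had a ratio or a bound, and 2 of these were past 2-fold, BCL6 lower and BACH2 higher. The count was 0 with the floor at the 70th percentile and 4 with no floor, settings for which no share over all genes is given here. Over all 14254 genes with a ratio or a bound, 7.76% were past 2-fold, 3.2% higher and 4.56% lower. A count of 2 among 9 is too small to be read as different from that share. No plasma cell factor was past 2-fold on its brightest probe set. Below the 2-fold threshold, XBP1, PRDM1, MAF and POU2AF1 were lower with pDCs by similar amounts, and IRF4 and MYC were slightly higher. The 9 members had a median log2 ratio of -0.47, with 6 lower and 3 higher, while all genes had a median of -0.04 and 52.8% of them were lower. At the probe set level, 4 of the 16 member probe sets with a ratio or a bound were past 2-fold, 2 higher and 2 lower. Among 25431 probe sets with 1 symbol, 8.98% were past 2-fold, 4.25% higher and 4.73% lower. Of the 16 member probe sets, 11 were lower by any size, against 50.9% of all. Probe sets of 1 gene measure the same transcripts and are not replicates.

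**Figure D1:**
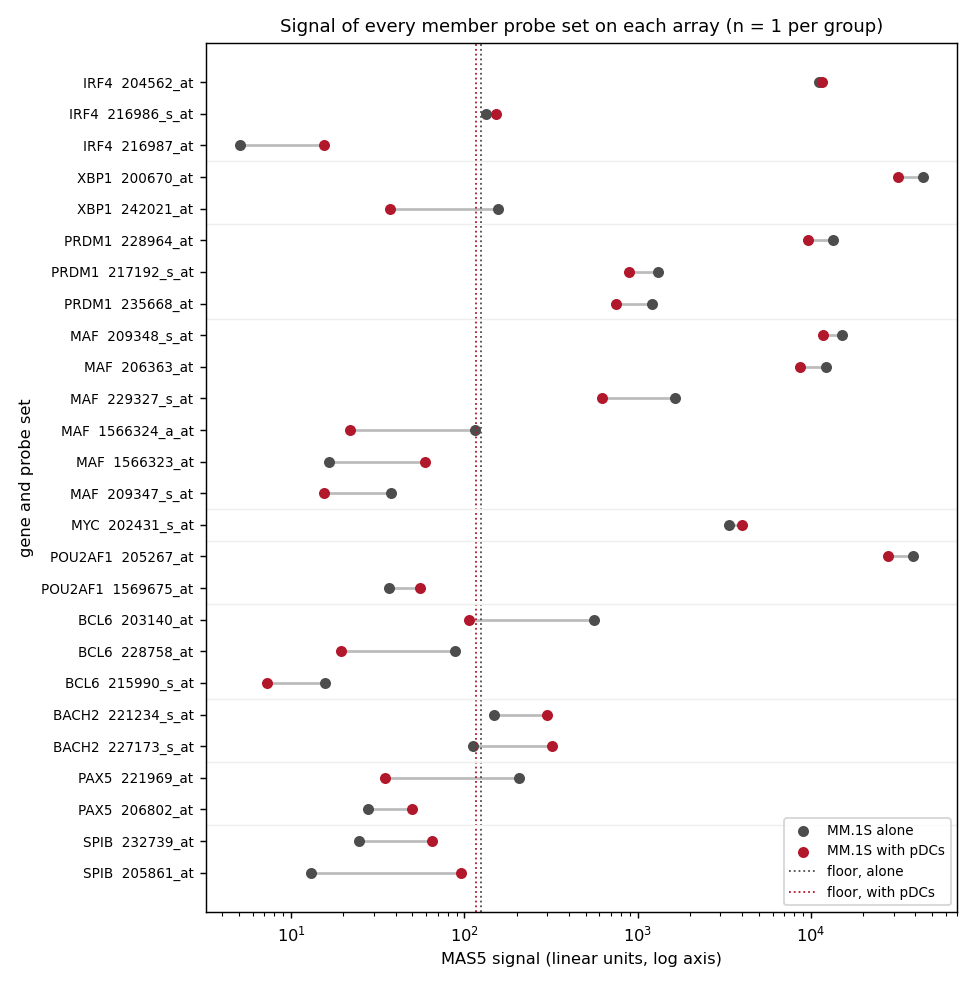
Signal (MAS5, linear units on a log axis) of each of the 26 member probe sets, with the MM.1S-alone array in grey, the array with pDCs in red and the floor of each array as a dotted line. The BCL6 and BACH2 probe sets above a floor lie apart in opposite directions, while the brightest IRF4 probe set is at 11634 with pDCs and 11111 alone.

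Among the plasma cell factors, IRF4, on which myeloma cells depend for survival, had a signal of 11634 with pDCs and 11111 alone on probe set 204562_at, a log2 ratio of 0.07. The second IRF4 probe set, close to the floor, had 151 and 133 (log2 ratio 0.19), and the last was below the floor on both arrays. The 2 arrays were thus nearly level for IRF4 on both measured probe sets.

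PRDM1, the repressor that ends the B cell programme, was lower on all 3 of its probe sets. Probe set 228964_at had 9676 with pDCs and 13402 alone, a log2 ratio of -0.47. The other PRDM1 probe sets had 891 against 1313 (-0.56) and 752 against 1204 (-0.68). The ratios of the 3 probe sets spanned 0.21 on the log2 scale, whereas the median span was 0.70 over 1237 genes that also had 3 probe sets measured on both (quartiles 0.40 and 1.03). PRDM1 was therefore lower by a similar amount wherever it was measured, without reaching 2-fold on any probe set.

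XBP1, which drives expansion of the secretory pathway after IRE1 splices its mRNA, had 31891 with pDCs and 44501 alone on 200670_at (log2 ratio -0.48). The other XBP1 probe set had 37.2 and 156 and was at least 1.35-fold lower, as it was below the floor with pDCs. These probe sets give total signal, and spliced and unspliced XBP1 were not analysed here.

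MAF, the basic leucine zipper factor that the translocation places under immunoglobulin control, was lower on each of the 3 probe sets above the floor. Signals were 11785 with pDCs and 15126 alone on 209348_s_at (log2 ratio -0.36) and 8658 against 12290 on 206363_at (-0.51). On 229327_s_at, MAF had 621 against 1639, a log2 ratio of -1.40 or 2.64-fold lower. The size of the MAF difference thus depended on the probe set, with a span of 1.04 over the 3, near the upper quartile of genes with as many probe sets. Its 3 remaining probe sets were below the floor on both arrays.

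MYC, the growth regulator that IRF4 is known to activate in myeloma, was measured by 1 probe set, with 3975 with pDCs and 3383 alone (log2 ratio 0.23). POU2AF1 had 27666 with pDCs and 38938 alone on 205267_at (log2 ratio -0.49), and its other probe set was below the floor on both arrays. The small MYC and POU2AF1 differences, of opposite sign, thus rest on a single probe set each.

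The bright members can be read against genes of like signal. The brightest 10% of genes measured on both arrays numbered 1153, and their median log2 ratio was -0.08, with quartiles of -0.31 and 0.19. Only 6 of these bright genes were 2-fold higher and 15 were 2-fold lower. XBP1, PRDM1, MAF and POU2AF1 lay below the lower quartile and IRF4 lay between the quartiles. MYC was not bright enough to be in this group. Loess scaling, which takes out the drift of the ratio with signal, gave -0.38 for XBP1, -0.43 for PRDM1, -0.31 for MAF, -0.40 for POU2AF1 and 0.11 for IRF4.

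**Figure D2:**
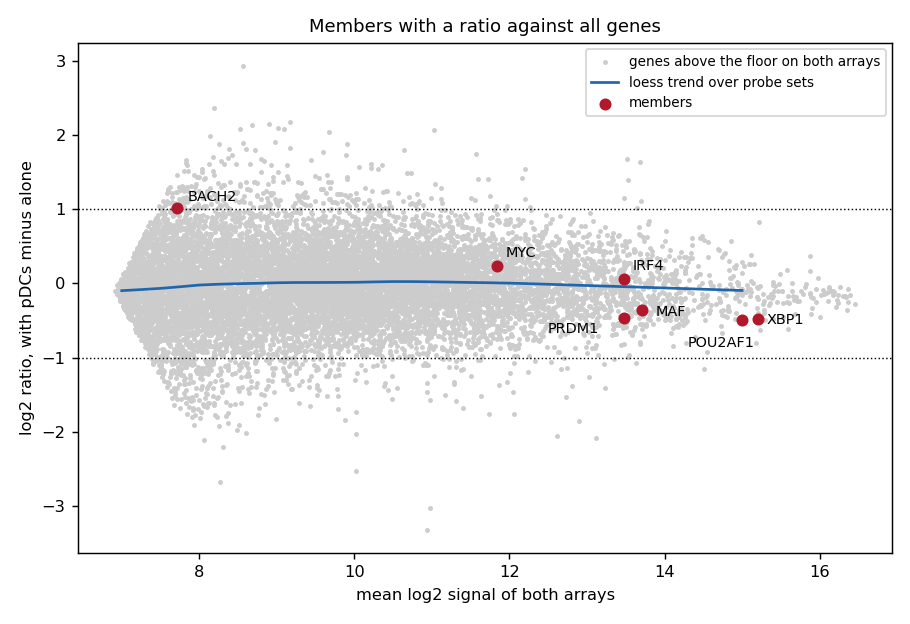
Log2 ratio (with pDCs minus alone) against mean log2 signal for genes measured on both arrays (grey), the 7 members that have a ratio (red) and the loess trend over probe sets (blue), with dotted lines at 2-fold. XBP1 at -0.48 and POU2AF1 at -0.49 lie below the trend among bright genes, IRF4 at 0.07 lies just above it, and BACH2 at 1.02 lies among dim genes, where ratios spread widely.

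The B cell factors were dim and did not move as a group. BCL6, the repressor that holds germinal centre B cells in their state, had 106 with pDCs and 562 alone on 203140_at, so it was at least 4.85-fold lower (log2 ratio -0.99 or lower with the floor at the 70th percentile). The other BCL6 probe sets were below the floor on both arrays, at 19.3 against 88.1 and 7.27 against 15.7. All 3 BCL6 probe sets had the lower signal with pDCs, but only 1 can be counted.

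BACH2, which represses PRDM1 and delays plasma cell differentiation, was higher with pDCs on both probe sets. Probe set 221234_s_at had 298 with pDCs and 147 alone, 2.03-fold higher, just past the threshold. Probe set 227173_s_at had 320 with pDCs and 113 alone, at least 2.58-fold higher. Without pDCs, neither BACH2 signal was above the highest bacterial control on that array (147.2), while with pDCs both were far above the highest control there (71.2).

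PAX5, the master regulator of B cell identity, had 34.7 with pDCs and 206 alone on 221969_at, at least 1.78-fold lower. Its other probe set was below the floor on both arrays, with 50.02 and 27.7. SPIB, an ETS factor of B cells that pDCs also use, was below the floor on both arrays on each probe set, with 95.6 against 13.01 and 65.1 against 24.5. SPIB therefore has no ratio. Both of its signals were nominally higher with pDCs, and on 205861_at the signal exceeded the bacterial controls of that array but not its floor.

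The comparison of plasma cell factors with B cell factors rests on few genes. The 5 plasma cell factors had a median log2 ratio of -0.36, with 3 lower and 2 higher. The 3 B cell factors with a value had a median of -0.83, the bound of PAX5, with BCL6 below it and BACH2 above 0. The difference of medians was 0.47. Plasma cell factors ran from -0.48 (XBP1) to 0.23 (MYC), inside the span of the B cell factors, which ran from -2.28 (the BCL6 bound) to 1.02 (BACH2). The ranges of the groups overlapped, which rests on BACH2: without it, BCL6 and PAX5 both lay below every plasma cell factor. That holds only for the probe sets that stand for the genes, as MAF had -1.40 on 229327_s_at. It also leaves out SPIB, which had no value here and 1.41 with no floor. Without x_at and s_at probe sets, where BACH2 and MYC have no value, the difference of medians was 1.08, and with the floor at the 70th percentile it was 0.11.

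Markers of other cell types are given here because RNA of other cells would carry some of these factors. Whether the RNA with pDCs was of the whole culture is not stated. If it was, fewer cells of a type and less RNA per cell cannot be told apart. Of 14 measured pDC markers, 8 were above the floor with pDCs and 10 alone, with a summed signal of 7037 and 9356. TCF4 gave the largest part of each sum, 3569 and 4400. The defining pDC markers CLEC4C (61.4 with pDCs and 6.43 alone) and IL3RA (29.0 and 21.1) were below the floor on both arrays, as was SPIB. LILRA4, also on the pDC list, was above it on both (306 and 256). The alone array was of MM.1S grown without pDCs, so marker signals there do not measure pDC RNA. TLR7 was above the floor only with pDCs (213 against 96.2), whereas GZMB, PACSIN1, TLR9 and BCL11A were at least 2-fold lower there. Of the 11 pDC markers with a value, 3 were higher and 8 lower. Of 6 measured monocyte markers, 2 were above the floor with pDCs and 4 alone, with summed signals of 315 and 1329. LYZ made up most of the sum alone, at 711 against 17.0 with pDCs. CD14 (139), S100A8 (182) and S100A9 (149) were above the floor alone, where the highest bacterial control was 147.2. BCL6 was lower on the same array as these monocyte markers, and their part in the BCL6 difference was not tested. B cell markers summed to 7111 with pDCs and 8392 alone, most of it from BLNK (4872 and 5937). Of 9 measured B cell markers, 7 were above the floor on each array. Of these 7, 3 were higher with pDCs and 4 lower, from CD79A at a log2 ratio of -0.55 to MS4A1 (CD20) at 0.79, and none was past 2-fold. T cell markers had 1 of 5 above the floor with pDCs and 2 alone. CD3D and CD3E were below it on both arrays, and CD3G was above it on both (150 with pDCs and 124 alone). The part of B and T cell RNA in the BACH2 difference was not tested. No marker in these lists had a signal of 0.

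Genes tied to the members were counted in lists taken from knowledge of the field, beside the all-gene median of -0.04. Of all genes with a ratio or a bound, 52.8% were lower and 7.76% were past 2-fold. The first list held 28 other transcription factors and cofactors of the B lineage, of which 21 had a value. Of these, 8 were higher and 13 lower, 1 was 2-fold higher, 3 were 2-fold lower, and the median was -0.20. POU2F2 (Oct-2), the octamer-binding partner of POU2AF1, had 541 with pDCs and 1157 alone, 2.14-fold lower. All 6 measured POU2F2 probe sets were lower and 3 were past 2-fold, so this factor was lower along with its coactivator. ID2, an inhibitor of E proteins, was 2.12-fold higher (2642 against 1248), also past 2-fold on its other probe set. KLF2, a factor of lymphocyte quiescence and traffic, was 2.01-fold lower (302 against 608), just under 2-fold after median centring. BCL11A, a factor of B cells and pDCs, was at least 2.32-fold lower (94.6 against 269), but 1 of its 2 other measured probe sets was higher.

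Of 25 listed XBP1 targets of the secretory pathway, 24 were measured, with 17 lower, 7 higher and a median of -0.18. FKBP11, a prolyl isomerase of the endoplasmic reticulum, was the only one past 2-fold, at 15633 with pDCs and 34961 alone. All 3 FKBP11 probe sets were lower, 2 of them past 2-fold, and their mean log2 ratio was -0.99. For comparison, 52.8% of all genes and 679 of the 1153 brightest genes were lower.

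IRF4 targets described in myeloma had a median of -0.10 over 10 genes, of which MYC and PRDM1 are members, with 4 higher and 6 lower. KLF2, given above, was the only one past 2-fold. MYC targets in ribosome production and metabolism had a median of -0.18 over 12 of 16 listed genes, 9 lower and 3 higher, opposite in sign to MYC. Of all genes 52.8% were lower, and 12 genes are too few to be read as different from that share. None of the MYC targets was past 2-fold. The brightest of them were NPM1, a nucleolar chaperone, at 45269 with pDCs and 45496 alone (log2 ratio -0.01, positive after median centring, quantile normalization and loess), and LDHA, lactate dehydrogenase, at 43201 and 51934 (-0.27).

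MAF targets had a median of 0.13 over 8 genes, 6 higher and 2 lower, opposite in sign to MAF. Of all genes 52.8% were lower, and 8 genes are too few to be read as different from that share. DEPTOR, an inhibitor of mTOR that MAF is known to raise in myeloma, had 7518 with pDCs and 2801 alone, 2.68-fold higher, on the 1 of its 2 probe sets above the floor. The remaining MAF targets were all within 2-fold.

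Genes that PRDM1 represses had a median of -0.33 over 9 genes, but 5 of the 12 on the list are members. Without the members, 1 of 5 was higher and 4 were lower, and none was past 2-fold. Genes that PAX5 activates, BACH2 and SPIB among them, had a median of -0.31 over 10 of 15 listed genes, with 3 higher and 7 lower. BACH2 was the only one past 2-fold. Without the members BACH2 and SPIB, the median was -0.33 over 9 genes, with 2 higher and 7 lower. No other gene measured on these 2 lists was 2-fold higher.

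Genes that BCL6 represses were split: 12 of 18 listed had a value, with 6 higher, 6 lower and a median of -0.02 that turned positive after quantile normalization and loess. The list holds the member PRDM1. Without PRDM1, the median as deposited was 0.04 over 11 genes, with 6 higher and 5 lower. CD44, the hyaluronan receptor, was 3.10-fold higher (23106 against 7447), past 2-fold on 8 of its 9 measured probe sets, and at least 2-fold lower on the ninth, a dim one with 55.5 against 242. NFKB1, a subunit of NF-kB, was 2.13-fold higher (2491 against 1172), and ID2 was higher as given above. CDKN1A (p21), which BCL6 is also known to repress, went the other way, at 1559 with pDCs and 3977 alone, 2.55-fold lower. The 4 genes past 2-fold thus included both directions.

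**Figure D3:**
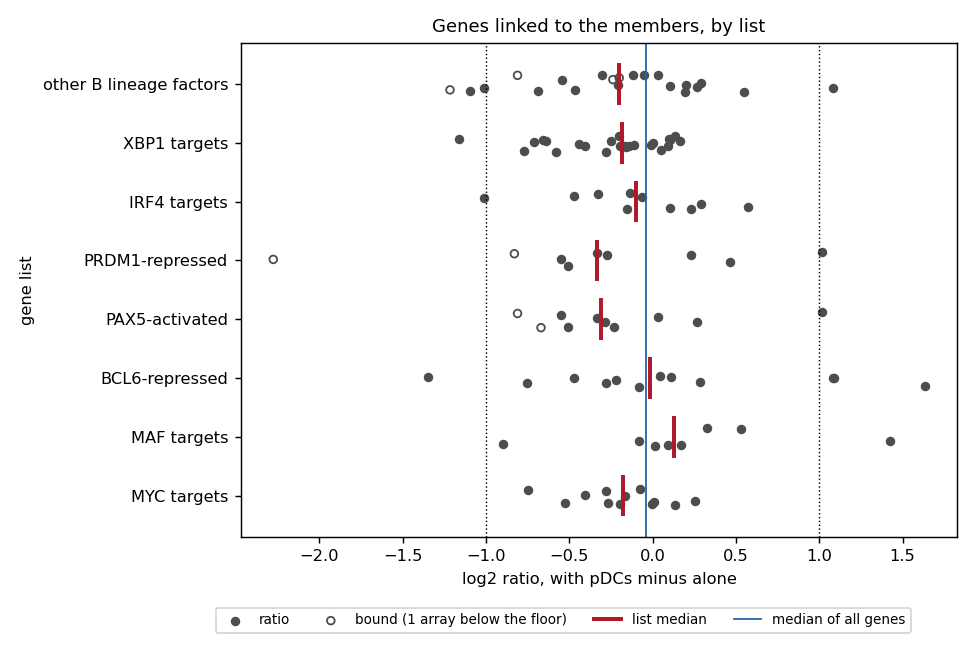
Log2 ratio (with pDCs minus alone) of each gene in 8 lists tied to the members, with filled points for ratios, open points for bounds, a red bar at each list median and a blue line at the median of all genes (-0.04). List medians run from -0.33 for PRDM1-repressed genes to 0.13 for MAF targets, and dotted lines mark 2-fold.

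The member ratios differed little between scalings of the arrays. Over median centring, quantile normalization and loess, with 9 members each, every member with a value kept its sign, and BCL6 and BACH2 were the members past 2-fold. Under each other rule for the floor or the probe set that gave a value, signs were also kept. BACH2 depended on the floor. At the 70th percentile its signal alone was raised to the floor, which left only a bound, a log2 ratio of 0.05 or higher. Its probe sets are both of the s_at class, which can bind several transcripts, so it had no value without that class. The PAX5 bound went from -0.83 at the median floor to -2.27 at the 30th percentile, and PAX5 had no value at the 70th.

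**Figure D4:**
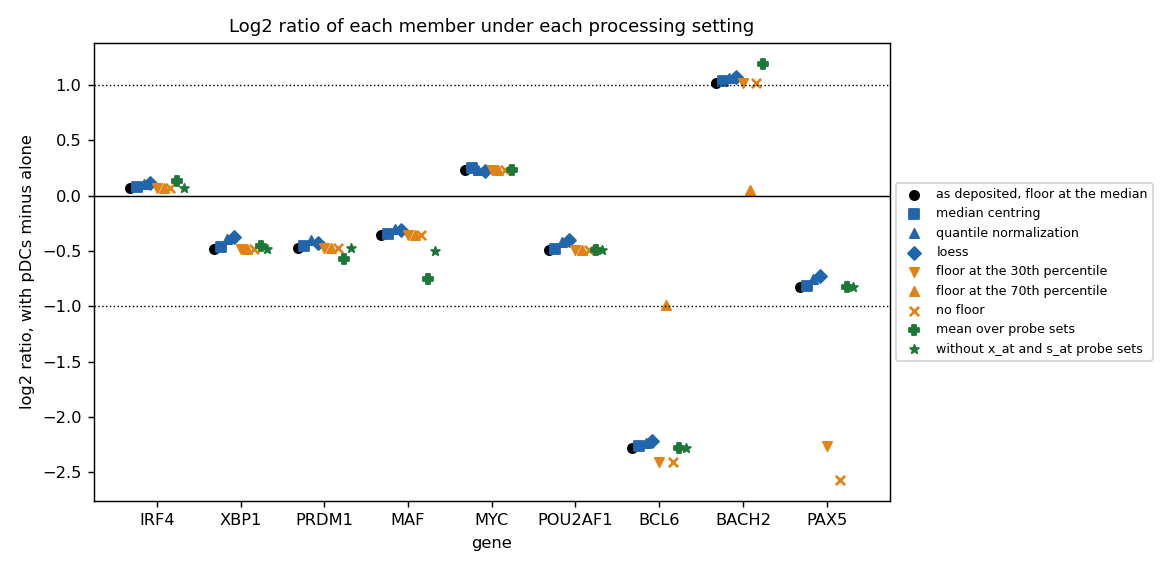
Log2 ratio (with pDCs minus alone) of the 9 members with a value under each scaling, floor and rule for choosing probe sets, with dotted lines at 2-fold. Over all settings PRDM1 ran from -0.57 to -0.40 and MAF from -0.76 to -0.30, its lowest value being the mean over probe sets. BCL6 (-2.40 to -0.99), BACH2 (0.05 to 1.19) and PAX5 (-2.57 to -0.73) ranged more widely, with the largest single moves between floors. The values -0.99 for BCL6, 0.05 for BACH2 and -0.73 for PAX5 are bounds.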

How the data were processed

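RNA of MM.1S cells grown with or without pDCs was hybridised to HG-U133 Plus 2.0 arrays, 1 per group. Sample titles gave the groups. The authors deposited 1 linear intensity per probe set, and the submitters' processing notes name MAS5. Neither its version nor its background settings or detection calls are stated in the sources used. The mean after trimming 2% at each end was 500.1 on both arrays, so a shift common to most transcripts would not be seen.

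The members and lists were chosen with earlier results of these data known. Of 54675 probe sets, 41091 had 1 gene symbol. The probe set brightest on average over both arrays (log2 scale) stood for its gene. Signals below the array median were set to it, and a bound under 1-fold was dropped. All 10 members are named. Of each related list, up to 4 genes past 2-fold are named or, where none was, the 2 with the highest signal. SDC1, TNFRSF17 and the other markers named were chosen after their values were seen, as was the comparison with the brightest 10% of genes. Calculations used Python 3.11.15, pandas 2.3.3, numpy 2.4.6 and statsmodels 0.14.6 (loess, span 0.3), and were tested on simulated data. Changes were planted there only in bright genes with 1 probe set, so bounds and the choice among probe sets were not checked. Promoter sequences came from RefSeq. For arrays, their number limits the precision.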

Additional observations from a re-analysis of the deposited data

How the results depend on the processing

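No paired analysis was possible because each group had 1 array. The count of members past 2-fold, 2 as reported, was 0 with the floor at the 70th percentile, 4 with no floor (PAX5 and SPIB added), 1 without x_at and s_at probe sets and 1 at a threshold of 3-fold. It was 2 or 3 under the other settings. The share of all genes past the threshold under these floors, probe set rules and thresholds is not given here. PAX5 (34.7) and SPIB (65.1), added with no floor, had signals with pDCs below the highest bacterial control of that array (71.2). With the floor at the 70th percentile, BCL6 had a bound, a log2 ratio of -0.99 or lower. The difference of plasma cell minus B cell medians, 0.47 as reported and after median centring, was 0.45 after quantile normalization, 0.42 after loess, 0.51 with the floor at the 30th percentile, 0.11 at the 70th and 0.33 with none. It was 0.38 with the mean over probe sets and 1.08 without x_at and s_at probe sets, where MYC and BACH2 had no value. It was 0.42 with POU2AF1 among plasma cell factors, 0.30 with it among B cell factors and 0.36 without MYC and MAF. The cause of these moves was not tested, beyond the loss of genes named.

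Of 69 member ratios or bounds under alternatives, 65 kept their side of 2-fold, 2 went below it and 2 went past it, with no change of sign. The 2 that went below it were the bounds of BCL6 and BACH2 with the floor at the 70th percentile. Alternatives for the related lists were chosen after seeing the data. NPM1 changed sign to 0.0072 after median centring, 0.092 after quantile normalization and 0.104 after loess, and the median of BCL6-repressed genes to 0.00013 after quantile normalization and 0.0185 after loess. Just under 2-fold were KLF2 after median centring (-0.996) and FKBP11 with the mean over probe sets (-0.99), where BCL11A had -0.50. Signals near the floor limit what can be said of BCL6, BACH2, PAX5 and SPIB.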
